A study of Mus musculus with 6 samples.

Results

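Gabpb1 was examined together with 9 other genes that control the making of mitochondria, in activated mouse splenic T cells. These 10 genes (Gabpa, Gabpb1, Gabpb2, Nrf1, Tfam, Tfb1m, Tfb2m, Ppargc1a, Ppargc1b and Pprc1) were found by their Ensembl identifiers among the 52550 genes of the deposited tables. Gabpb1 was chosen by its lower counts in the treated samples, and the other 9 as the family of regulators it works with. Differences between the groups are therefore given for these genes as descriptions, with a standard error and no p, and counts of members past a threshold are given beside the same count over all genes with nothing read from them.

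RNA came from wild-type splenic CD3+ T cells, isolated with magnetic beads and stimulated for 24 h by antibodies against CD3 and CD28, which engage the T cell receptor (TCR) and its costimulator. One group was stimulated with nothing added (TCR alone, n=3). The other was stimulated in the presence of DMGV, dimethylguanidino valeric acid, a product of dimethylarginine breakdown, at 100 ng/ml (TCR+DMGV, n=3). The labels number the samples as biological replicates and name the compound DMGV. The study's text gives the same dose and time for LNY1, a factor purified from fibroblast medium. The study takes LNY1 to be the dimethylarginines ADMA and SDMA, from which DMGV is made, and states its DMGV doses for cells in micromolar units. Which of these was added is not settled here. No untreated or resting T cells were among the samples, and the labels give no strain or age. By the methods, mice of either sex were 6 to 8 weeks old, and C57BL was one of several strains used, with none named for the RNA samples. Over all genes, the TCR alone libraries held 37758725, 41593014 and 40327431 counts in the order of their replicate numbers, and the TCR+DMGV libraries 43587243, 43718867 and 40492457. Values for single samples are given below in the same order.

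In a principal component analysis of all genes tested, TCR alone replicate 3 and TCR+DMGV replicate 1 lay apart from the other 4 libraries. Their scores on the first component, which held 32.2% of the variance, were 42.1 and 42.9, against -34.9 to -10.5 for the others. The log2 fold change of each member without these 2 libraries is given beside its main value. All 14 T cell markers listed were detected, with Cd3d, Cd3e and Cd3g at mean levels of 63.0, 64.1 and 72.0 FPKM (fragments per kilobase of length, scaled to depth) and Cd5, the most abundant of the list, at 212 FPKM. The summed level of the T cell markers was 4289, 4370 and 4619 CPM (counts scaled to a common library total) in TCR alone and 4837, 4607 and 4757 CPM in TCR+DMGV. The B cell markers summed to between 11.16 and 13.97 CPM over the 6 samples, led by Cd79b at 5.243 to 8.086 CPM, with Ms4a1 between 0.662 and 1.264 CPM and Cd79a no higher than 0.294 CPM. The myeloid markers summed to between 9.41 and 12.18 CPM, led by Csf1r at 6.910 to 8.673 CPM, with Lyz2 listed at 0 in TCR alone replicates 1 and 2 and Cd14, S100a8 and S100a9 at 0 in all samples. The NK cell markers summed to between 54.55 and 73.6 CPM, nearly all of it from Eomes, a factor that activated CD8 T cells also express, while Ncr1, which defines NK cells, stayed between 0.098 and 0.831 CPM. The erythroid and platelet markers summed to between 3.55 and 6.42 CPM, led by Hbb-bs at a mean of 1.39 FPKM, with Ppbp at no more than 0.209 CPM. Hba-a1 had 1.237, 1.078 and 1.039 CPM in TCR alone, against 0.247, 0.302 and 0.908 CPM in TCR+DMGV, without overlap. No summed marker level parted the groups, but the single genes of some lists lay to one side. Over all genes tested, 50.6% were above 0, 4.92% were higher in TCR+DMGV without overlap and 3.94% lower without overlap. Of the 14 T cell markers, 13 were above 0 (median log2 fold change 0.10), and Cd5, Cd6, Zap70 and Cd4 were higher in TCR+DMGV without overlap. All 5 myeloid markers tested were below 0 (median -0.75), from Csf1r at -0.08 to Fcgr3 at -0.96, and Fcgr3, at no more than 0.483 CPM, was lower without overlap, as was Hba-a2 among the erythroid genes (-1.20). All 3 NK cell markers tested were above 0 (median 0.46). Of 6 B cell markers tested, 4 were below 0 (median -0.07), and 1 was lower and 1 higher without overlap. Of 6 erythroid and platelet markers tested, 4 were below 0 (median -0.27). None of these passed over all genes (edgeR), and their part in the values below was not tested. Cd6, Zap70, Cd4, Fcgr3 and Hba-a2 were named after their values were seen. In bulk RNA, fewer cells of a type and less RNA per cell cannot be told apart.

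Most proteins of the mitochondrion are encoded in the nucleus, and their genes are switched on together by a small set of transcription factors. GABP, also named nuclear respiratory factor 2, is built from GABPA, an ETS protein that binds DNA, and a beta subunit, GABPB1 or GABPB2, which binds no DNA itself and brings the activating domain. Beta subunits that end in a leucine-zipper-type stretch can join 2 GABPA-GABPB pairs into a tetramer, and shorter forms cannot. NRF1 binds a GC-rich palindrome in many of the same promoters. Both drive the genes of TFAM, TFB1M and TFB2M, which enter the mitochondrion and act on its DNA and ribosomal RNA, and both work with the coactivators PGC-1 alpha (Ppargc1a), PGC-1 beta (Ppargc1b) and PRC (Pprc1). T cells enlarge their mitochondria after activation, and GABP is known to be needed for T cell expansion.

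Gabpb1 (ENSMUSG00000027361.15) lies on chromosome 2 from 126627442 to 126676337 on the reverse strand (GRCm38, GENCODE M21, matched by identifier). The coding parts of its annotated forms differ mainly in the last exon, and the sequences below are shown because they divide the Gabpb1 counts described below into classes. Gabpb1-206 (ENSMUST00000110425.8) has 1152 coding bases and Gabpb1-203 (ENSMUST00000103226.9) 1047, and they share the first 1000. The long forms splice from an exon at chr2:126639229-126639344 to a last exon that in Gabpb1-206 is chr2:126627442-126630382, whereas Gabpb1-203 reads on through the splice site to the end of an exon at chr2:126639021-126639344. Both are given 5′ to 3′ on the coding strand from the GENCODE transcripts, with the last 18 shared coding bases in lower case and the bases particular to each form, stop codon included, in capitals.
Gabpb1-206: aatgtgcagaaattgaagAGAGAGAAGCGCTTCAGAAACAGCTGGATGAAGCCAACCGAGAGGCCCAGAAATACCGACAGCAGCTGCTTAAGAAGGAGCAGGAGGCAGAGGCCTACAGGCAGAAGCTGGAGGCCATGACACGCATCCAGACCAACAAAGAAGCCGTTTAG
Gabpb1-203: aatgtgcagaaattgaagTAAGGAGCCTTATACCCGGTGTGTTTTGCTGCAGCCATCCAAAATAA
The long form adds 152 coding bases of its own and the short form 47. The long end is the part that carries the leucine-zipper-type stretch.

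**Figure D1:**
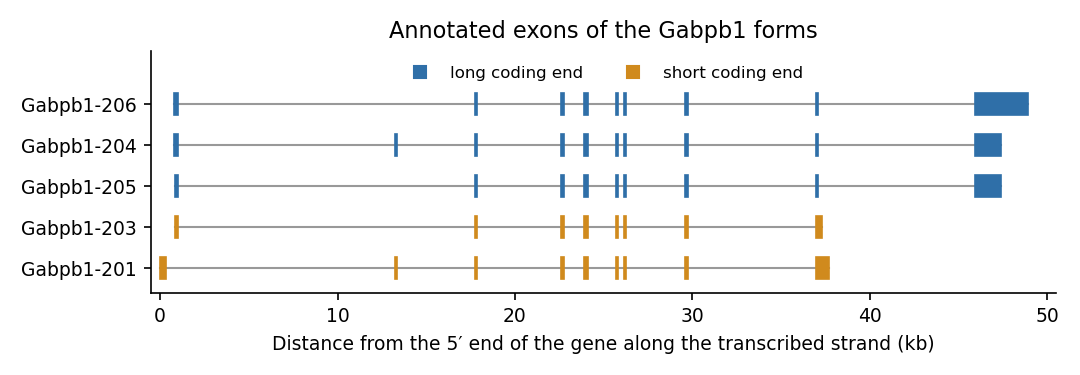
Annotated exons (boxes) of the 5 Gabpb1 forms with a long (blue) or short (orange) coding end, drawn to scale as distance in kb from the 5′ end of the gene along the transcribed strand. The long forms end in a far downstream exon, which is 2941 bases long in Gabpb1-206 and 1468 in Gabpb1-204, and the short forms end in an extended version of the exon before it.

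Gabpb1 was lower in all TCR+DMGV samples than in any TCR alone sample. Its counts were 2933, 2785 and 2676 in TCR alone and 1941, 1832 and 1620 in TCR+DMGV. Scaled to depth these were 77.22, 68.24 and 64.65 CPM against 43.61, 42.55 and 40.88 CPM, so the lowest TCR alone sample stood above the highest TCR+DMGV sample, and the spread within TCR+DMGV was small. The means were 70.04 ± 6.47 and 42.34 ± 1.37 CPM (SD, n=3 each), a ratio of 0.605 and a log2 fold change of -0.73 (standard error 0.096, edgeR). An antisense gene, Gm27003, overlaps Gabpb1 by 422 bases and had 0 to 13 counts. Without the 2 libraries apart on the first component the log2 fold change was -0.80, and leaving out each sample in turn gave -0.77 to -0.67. Among all genes tested, 418 of 14786 had a log2 fold change as far below 0 or farther, and among the 9083 genes whose average log2 CPM in edgeR was above 3 Gabpb1 ranked 29 when sorted from the lowest log2 fold change. A low rank follows from choosing Gabpb1 by this same contrast, so these places are given as description and support nothing about it.

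The value of Gabpb1 stands beside a comparison in which few genes passed. Of the 14786 genes tested by edgeR's quasi-likelihood test, 2 passed an adjusted p of 0.05 (0.0135%), and 471 had an unadjusted p under 0.05. These were Slc39a9, a zinc transporter gene, lower in TCR+DMGV (log2 fold change -1.37, adjusted p = 0.0289), and Ahcyl2, a gene related to adenosylhomocysteinase, higher (0.94, adjusted p = 0.0424), both named after their values were seen. Of the 9 members in this fit, 0 were past the threshold. DESeq2, an alternative, called 14 of the 19675 genes to which it gave an adjusted p (0.0712%), and Gabpb1 was 1 of them. Groups did not overlap and were lower in TCR+DMGV for 3.94% of genes, and did not overlap and were higher for 4.92%. Among the members, Gabpb1 was the 1 of 9 without overlap. These counts are given as description and support nothing about Gabpb1, since the same contrast was used to choose it.

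**Figure D2:**
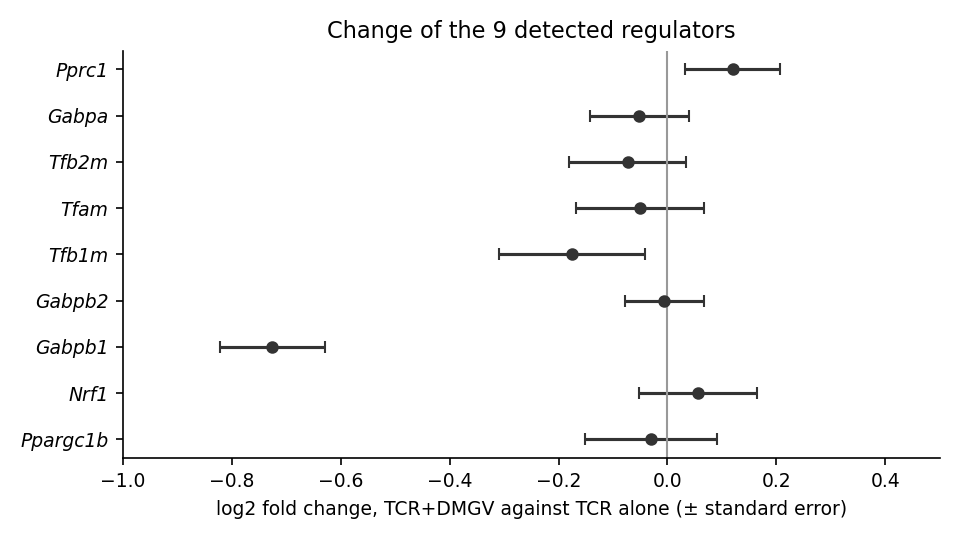
Log2 fold change of TCR+DMGV against TCR alone from the edgeR fit for the 9 detected members, in the order of their level, with the standard error as a bar. Gabpb1 lies at -0.73, and the other 8 lie between -0.18 and 0.12.

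Transcripts with the long coding end held most of the Gabpb1 counts in every sample and most of the difference between the groups. The 3 long forms (Gabpb1-204, Gabpb1-205 and Gabpb1-206) together had 2504, 2158 and 1954 counts in TCR alone, against 1282, 1428 and 1137 in TCR+DMGV. Their mean was 55.3 ± 9.6 CPM in TCR alone, against 30.2 ± 2.55 CPM in TCR+DMGV, without overlap (SD, n=3 each). The short forms (Gabpb1-201 and Gabpb1-203) had 347, 586 and 658 counts in TCR alone, against 598, 368 and 461 in TCR+DMGV, and here the groups overlapped. Their means were 13.1 ± 3.54 and 11.2 ± 2.47 CPM. Of the difference in CPM between the group means of the gene, 90.7% was in the long forms and 6.95% in the short forms. This split is of counts, and per length the short forms would hold a larger part of the difference. The long forms held 78.6% of the gene's counts in TCR alone, which is the part they would have of a difference spread evenly over all forms. With each library left out in turn, the long forms held 82.3 to 96.0% of it and the short forms 1.79% (without TCR alone replicate 3) to 16.3% (without TCR alone replicate 1), with 2.15% without TCR+DMGV replicate 2, 10.7% without TCR+DMGV replicate 1 and 4.59% without TCR alone replicate 2.

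As a share of the gene's counts, the long forms held 85.4, 77.5 and 73.0% in TCR alone and 66.0, 77.9 and 70.2% in TCR+DMGV. The shares of the groups overlapped, with means of 78.6 ± 6.26% and 71.4 ± 6.04% (SD, n=3 each). Per length, from the transcript FPKM, the short forms weighed more, with a mean share of 36.8 ± 8.84% in TCR alone and 45.8 ± 6.57% in TCR+DMGV, and again the groups overlapped. The short forms were highest in TCR+DMGV replicate 1, at 51.3% of the FPKM, and lowest in TCR alone replicate 1, at 26.6%.

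**Figure D3:**
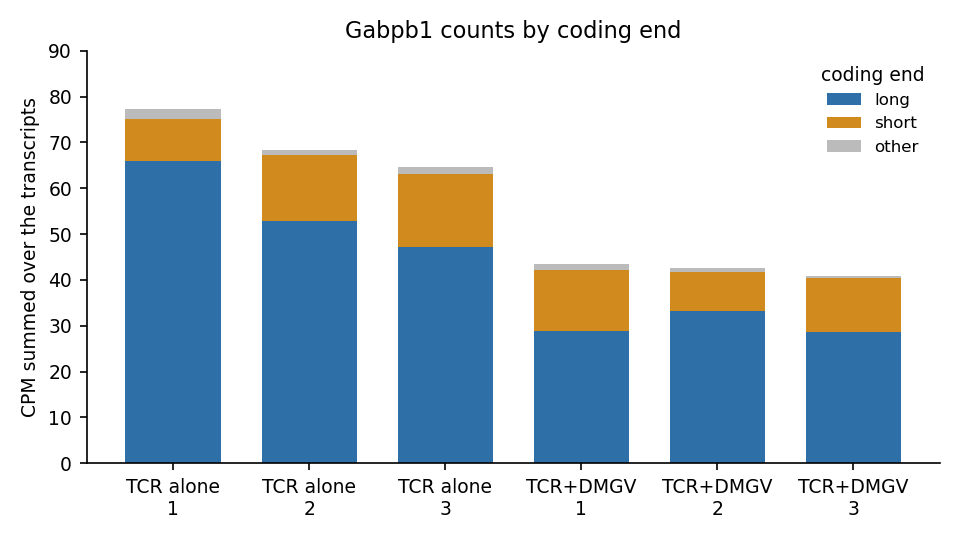
CPM of Gabpb1 in each sample, stacked by the coding end of the transcripts (long, short, other). The long part falls from between 47.2 and 65.9 CPM in TCR alone to between 28.7 and 33.2 CPM in TCR+DMGV, and the short part overlaps between the groups.

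Within the long class the counts moved between forms from library to library. Gabpb1-206, the leading transcript with 46.2% of all Gabpb1 counts, held 62.3, 57.7 and 25.9% in TCR alone and 34.5, 49.6 and 40.7% in TCR+DMGV. The lowest value was in TCR alone replicate 3, where Gabpb1-204 took 36.5% instead, against 15.9 to 25.1% elsewhere. Gabpb1-206 ends in a last exon that is longer than that of Gabpb1-204, with the same coding end. Since transcript counts are estimates that divide shared reads, the sum over a class was used above in place of single forms. Of the 39 member transcripts in the transcript fit, of 73 listed, 0 were past the threshold, where the share over all 38401 transcripts was 0.0% (1235 at an unadjusted p under 0.05, edgeR). With DESeq2 it was 0 of 52, beside 0.764% of all transcripts with an adjusted p.

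Gabpa (ENSMUSG00000008976.16, chromosome 16 from 84834925 to 84863779, forward strand), the DNA-binding subunit, had levels of 22.59, 22.30 and 19.56 FPKM in TCR alone and 20.04, 21.11 and 20.40 FPKM in TCR+DMGV. The groups overlapped, and the log2 fold change was -0.05 (standard error 0.091), or -0.09 without the 2 libraries apart on the first component. Of its counts, 97.0% were in Gabpa-201, with 96.5 to 97.4% in every sample. The gene overlaps Atp5j on the other strand by 701 bases, a gene with 2533 to 3612 counts, and whether reads were assigned by strand is not given.

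Gabpb2 (ENSMUSG00000038766.16, chromosome 3 from 95181766 to 95217916, reverse strand), which encodes the other beta subunit, was the steadiest member. Its levels were 8.14, 8.12 and 7.76 FPKM in TCR alone and 8.25, 7.50 and 7.94 FPKM in TCR+DMGV. The log2 fold change was -0.01 (standard error 0.073), or -0.05 without the 2 libraries apart, and the coefficient of variation over the 6 samples was 3.53%. The coding bases of Gabpb2-202 and Gabpb1-206 are 70.3% identical over 1067 aligned bases. An antisense gene, Gm16740, overlaps it by 460 bases and had 51 to 103 counts.

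Below the steady total, 1 library differed in the form of Gabpb2. Gabpb2-202 held 81.9, 83.6 and 78.4% of the gene in TCR alone and 84.4 and 75.6% in TCR+DMGV replicates 2 and 3, but 16.1% in TCR+DMGV replicate 1. In that library Gabpb2-204 held 76.8%, against 10.2 to 14.1% in the other 5. In counts this was 1008 for Gabpb2-202 and 4809 for Gabpb2-204. The forms share 6 exons and a coding length of 1245 bases, and they differ at the 5′ end, where Gabpb2-204 has exons of 121 and 55 bases and Gabpb2-202 one of 98 bases, and by 7 bases in the last exon. The other samples of TCR+DMGV did not show this, so the group mean of 58.7 ± 37.2% (SD, n=3) rests on that sample.

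**Figure D4:**
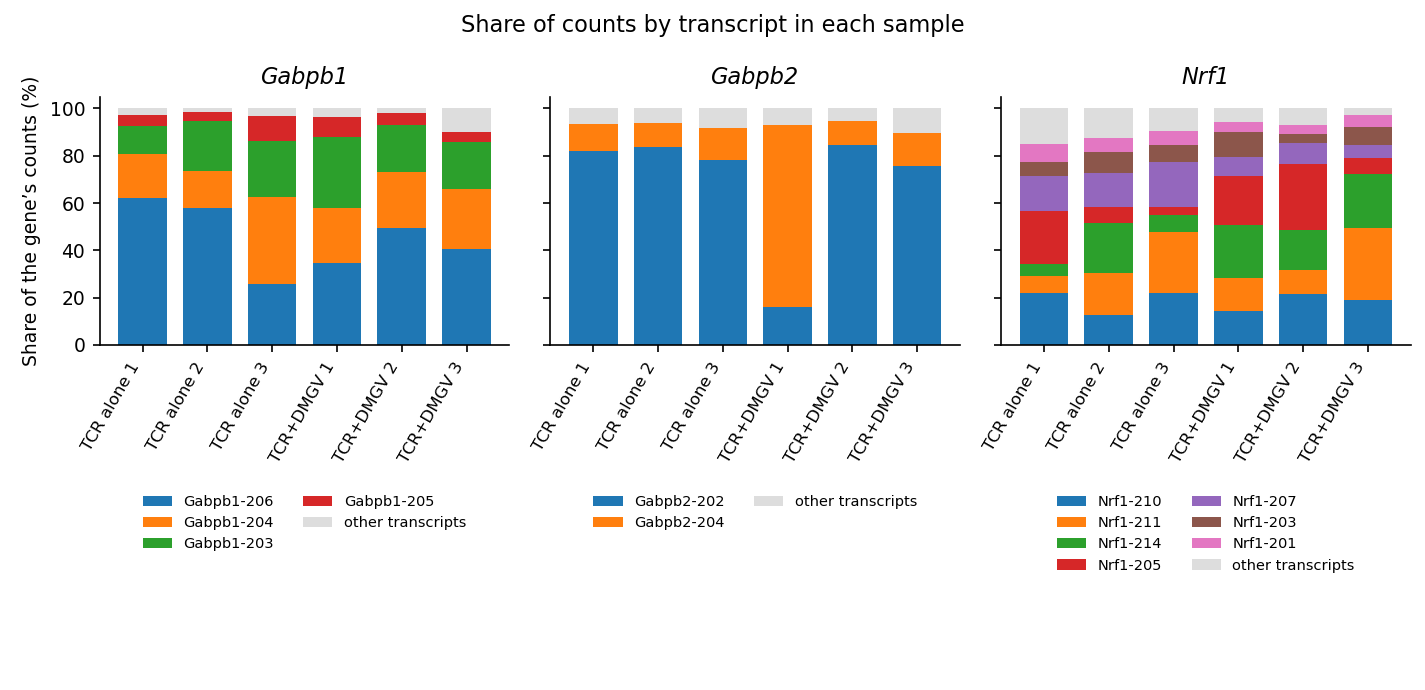
Share of the counts of Gabpb1, Gabpb2 and Nrf1 (percent) in each transcript that holds at least 5% of the gene's counts, one bar per sample. Gabpb2-204 holds 76.8% in TCR+DMGV replicate 1 and no more than 14.1% elsewhere, and the counts of Nrf1 are spread over 7 such transcripts in proportions that vary by library.

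With Gabpa and Gabpb2 steady, the balance of the GABP subunits' mRNA differed between the groups. The ratio of Gabpb1 to Gabpa FPKM was 0.395, 0.344 and 0.388 in TCR alone and 0.254, 0.227 and 0.224 in TCR+DMGV. The ratio of Gabpb2 to Gabpa was 0.374 ± 0.020 and 0.385 ± 0.028 (SD, n=3 each), and the groups overlapped. Gabpb1 made up 52.3, 48.6 and 49.5% of the FPKM of both beta subunits in TCR alone, and 38.2, 39.0 and 36.6% in TCR+DMGV. Summed, the beta subunits had 16.1 ± 0.889 FPKM in TCR alone and 12.7 ± 0.554 FPKM in TCR+DMGV. The size of these ratios depends on the lengths used. From the summed FPKM of the transcripts, Gabpb1 to Gabpa was 0.850, 0.848 and 1.09 in TCR alone and 0.729, 0.578 and 0.590 in TCR+DMGV, and Gabpb1 made up 59.2, 57.8 and 61.6% and 51.3, 49.9 and 46.2% of both beta subunits, again without overlap. These ratios hold the Gabpb1 values used to choose the gene and are given as description.

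Nrf1 (ENSMUSG00000058440.14, chromosome 6 from 30047988 to 30153458, forward strand) encodes the nuclear respiratory factor that binds its own GC-rich site. Its levels were 2.68, 2.98 and 3.18 FPKM in TCR alone and 3.43, 2.85 and 2.84 FPKM in TCR+DMGV. The groups overlapped, with a log2 fold change of 0.06 (standard error 0.11), or 0.03 without the 2 libraries apart. Its counts were spread over 20 listed transcripts, 7 of which held at least 5% each, and the leading one, Nrf1-210, held 18.2% over all samples. Nrf1-205 had the widest range of counts of these 7, with 263, 98 and 48 counts in TCR alone, against 362, 400 and 89 in TCR+DMGV. Nrf1-207 had 172, 205 and 283 counts in TCR alone, against 141, 128 and 75 in TCR+DMGV, and the groups did not overlap in counts or CPM. Of the 39 member transcripts tested, 5 were lower without overlap in CPM (Gabpb1-204, Gabpb2-207, Nrf1-201, Nrf1-207 and Pprc1-207) and 0 higher, beside 4.18% and 5.07% of all transcripts tested. Gabpb2-207 and Pprc1-207 hold less than 5% of their genes' counts and were named after their values were seen.

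Tfam (ENSMUSG00000003923.14, chromosome 10 from 71225464 to 71238280, reverse strand) encodes the protein that packages mitochondrial DNA and starts its transcription. Its levels were 15.86, 18 and 14.49 FPKM in TCR alone and 14.44, 16.22 and 15.56 FPKM in TCR+DMGV. The groups overlapped, and the log2 fold change was -0.05 (standard error 0.12), or -0.07 without the 2 libraries apart. Tfam-201 held 95.5% of the counts.

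Tfb2m (ENSMUSG00000026492.11, chromosome 1 from 179528055 to 179546267, reverse strand), which encodes the initiation factor of the mitochondrial RNA polymerase, had levels of 16.90, 17.73 and 15.80 FPKM in TCR alone and 16.13, 17.23 and 14.12 FPKM in TCR+DMGV. Its log2 fold change was -0.07 (standard error 0.11), or -0.12 without the 2 libraries apart on the first component. Tfb2m-201 held 93.0% of the counts, and a noncoding form, Tfb2m-203, reached 10.8% in TCR alone replicate 3 and 14.2% in TCR+DMGV replicate 1, against 2.88 to 4.87% in the other 4 samples. These are the 2 libraries that lay apart on the first component.

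Tfb1m (ENSMUSG00000036983.6, chromosome 17 from 3519256 to 3557781, reverse strand) encodes a methyltransferase of mitochondrial ribosomal RNA. Its levels were 12.49, 12.23 and 10.97 FPKM in TCR alone and 9.67, 9.76 and 11.82 FPKM in TCR+DMGV. TCR+DMGV replicates 1 and 2 lay below all TCR alone samples and replicate 3 among them. The log2 fold change was -0.18 (standard error 0.13), -0.17 without the 2 libraries apart on the first component and -0.29 to -0.11 with each sample left out in turn. Tfb1m overlaps Tiam2 on the other strand by 12089 bases, a gene with 28 to 85 counts, and Cldn20 by 660 bases, with 0 to 4 counts.

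Pprc1 (ENSMUSG00000055491.13, chromosome 19 from 46044886 to 46072915, forward strand), the gene of the PRC coactivator, which is induced in growing cells, had the highest level of the members. Its levels were 22.33, 19.30 and 24.20 FPKM in TCR alone and 23.90, 24.31 and 22.45 FPKM in TCR+DMGV. The groups overlapped, with a log2 fold change of 0.12 (standard error 0.087), and 0.19 without the 2 libraries apart on the first component. It ran from 0.05 without TCR alone replicate 2 to 0.19 without TCR alone replicate 3. Pprc1-201 held 59.8 to 73.9% of the counts. The gene overlaps Ldb1 on the other strand by 329 bases, a gene with 4691 to 6587 counts. Summed over the FPKM of its transcripts, Pprc1 had 45.2 ± 5.49 in TCR alone and 42.4 ± 2.02 in TCR+DMGV (SD, n=3 each), so the direction of its small difference turned with the measure.

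Ppargc1b (ENSMUSG00000033871.14, chromosome 18 from 61298136 to 61400431, reverse strand), the gene of PGC-1 beta, had the lowest level of the detected members. It had 2.79, 2.31 and 2.52 FPKM in TCR alone and 2.64, 2.33 and 2.41 FPKM in TCR+DMGV, with a log2 fold change of -0.03 (standard error 0.12), or -0.08 without the 2 libraries apart. Ppargc1b-202 held 99.2% of the counts.

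Ppargc1a (ENSMUSG00000029167.13, chromosome 5 from 51454250 to 51567726, reverse strand), the gene of PGC-1 alpha, was listed at 0 counts in all 6 samples. A count of 0 allows up to 3 counts per library, for counting error only. Scaled by the library total alone, this is 0.0686 to 0.0795 CPM. All 37 genes of the mitochondrial genome were also listed at 0 counts in every sample, and T cells transcribe these genes, so a 0 in these tables need not mean that a gene was silent.

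**Figure D5:**
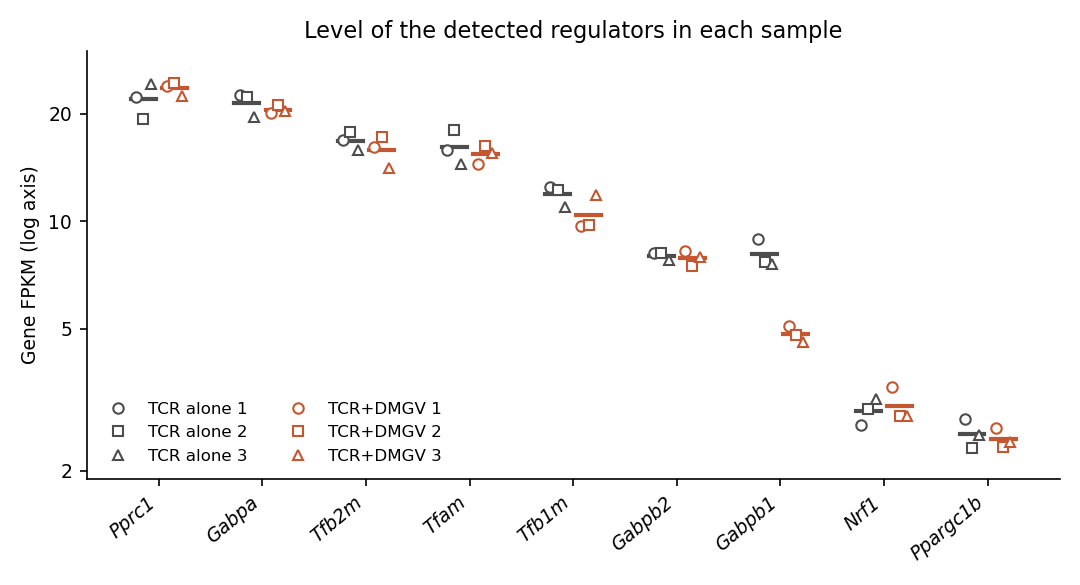
Gene FPKM of the 9 detected members in each sample on a log axis, ordered by mean level, with symbols for replicates and a line at each group's mean. Gabpb1 is the one gene whose groups part, from between 7.59 and 8.93 FPKM in TCR alone to between 4.57 and 5.10 FPKM in TCR+DMGV. Ppargc1a is at 0 and not drawn.

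Over all 6 samples the members ranked by gene FPKM as Pprc1 (22.7 ± 1.9), Gabpa (21 ± 1.23), Tfb2m (16.3 ± 1.29), Tfam (15.8 ± 1.31), Tfb1m (11.2 ± 1.23), Gabpb2 (7.95 ± 0.281), Gabpb1 (6.44 ± 1.85), Nrf1 (2.99 ± 0.270) and Ppargc1b (2.5 ± 0.186) (SD, n=6). Neighbours in this order were compared by a two-sided exact sign-flip permutation test of their log2 difference within samples, which cannot give a p below 0.0312 with 6 samples. Gabpa was higher than Tfb2m, Tfam than Tfb1m and Tfb1m than Gabpb2 in 6 of 6 samples, each at that smallest p (adjusted over 8 pairs, p = 0.0625 by the exact permutation test). Gabpb1 was higher than Nrf1 in 6 of 6 samples. The pairs that hold Gabpb1 use the values by which it was chosen, so they are given as description with no p. Pprc1 against Gabpa (higher in 4 of 6 samples), Tfb2m against Tfam (4 of 6) and Gabpb2 against Gabpb1 (5 of 6) differed by less than the spread of their difference. Nrf1 was above Ppargc1b in 5 of 6 samples, by 0.26 ± 0.16 on the log2 scale (SD). Adjusted p for the pairs among these without Gabpb1 lay between 0.1 and 0.344 by the same exact permutation test. The place of Gabpb1 rests on the treated samples, since in TCR alone its mean of 8.07 FPKM lay beside 8.01 for Gabpb2, and in TCR+DMGV it was 4.82 beside 7.89.

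The order depends on the length that FPKM divides by. For 7 of the 9 detected members the deposited gene FPKM implied a length within 2% of all annotated exons joined, as for Gabpb1 (7760 bases against 7752) and Nrf1 (10330 against 10282), whose leading transcripts have 4153 and 3295. For Tfb1m it implied 1400 bases against 3609 joined, near its 1 transcript of 1402, and for Pprc1 7520 against 6284. Summed over the FPKM of its transcripts, Gabpb1 had 19.5 ± 4.75 and Nrf1 15 ± 2.06 (SD, n=6), and Gabpb1 then ranked above Gabpb2 (16 ± 0.793) over all samples, with 23.6 against 16.1 in TCR alone but 15.5 against 15.9 in TCR+DMGV, and Nrf1 above Tfb1m (11.2 ± 1.23). Nrf1 was above Ppargc1b, and Tfb1m below Gabpb2, in 6 of 6 samples on this scale. Gabpb1 was above Nrf1 in 5 of 6 samples, and both had a mean of 15.5 in TCR+DMGV. On this scale Gabpb1 had 23.0, 22.4 and 25.5 in TCR alone and 17.6, 14.5 and 14.2 in TCR+DMGV, still without overlap.

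Promoter windows of 300 bases (250 before to 50 after an annotated start, RefSeq, GRCm38.p6) were at hand for 9 of the 10 members, 11 windows in all. They are shown because GABP and NRF1 drive some of the members, as given above for the genes of TFAM, TFB1M and TFB2M. Each stretch of 30 bases is given 5′ to 3′ on the strand of the gene, with the motif in capitals. All motifs were searched on both strands as exact letters.
Gabpb1, NRF1 motif (any base allowed after the A): ccccgctgccGCGCAGGCGCcgggcgagcc
Tfam, GABP/ETS motif CCGGAAG: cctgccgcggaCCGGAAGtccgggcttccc
Gabpa, GABP/ETS motif on the reverse strand: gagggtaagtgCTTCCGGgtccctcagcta
Tfb2m, NRF1 core TGCGCA: cccgcctccctcTGCGCAaccctcccggct
The NRF1 motif begins 215 bases before the start of Gabpb1 (chr2:126675788-126675817) and was in 4.6% of the 32851 windows of all genes. The GABP/ETS motif begins 47 bases before the start of Tfam (chr10:71238073-71238102) and 93 before that of Gabpa (chr16:84835020-84835049), and was in 8.86% of windows. The NRF1 core was found 181 bases before the start of Tfb2m (chr1:179546440-179546469) and in 7.76% of windows. A YY1 motif (AAGATGGC, 2.75% of windows) was in Gabpa, and the GC box (GGGCGG, 35.7% of windows) was in Gabpb1, Nrf1, Tfam, Tfb1m and Tfb2m. The CRE (TGACGTCA, 1.79% of windows) and the E-box (CACGTG, 7.15%) had no match in the member windows. These letters describe the windows and not binding in these cells.

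The wider machinery was described with 8 lists of genes. Of 213 genes matched, 181 were tested. With edgeR, 0 passed the threshold in either direction, beside 0.0135% of all genes, and 4 had an unadjusted p under 0.05. With DESeq2, 0 passed and 3 had an unadjusted p under 0.05. The median log2 fold change over all genes tested was 0.00, and that of the 9 members tested was -0.05. Without the 2 libraries apart on the first component, the medians of the 7 lists that could be tested lay between -0.03 and 0.19.

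Of 29 genes that act on mitochondrial DNA tested, 16 were above 0 and 13 below, with a median of 0.02. The gene of smallest p was Polrmt, the mitochondrial RNA polymerase, with 44.28, 41.51 and 42.35 CPM in TCR alone, against 56.93, 56.43 and 47.74 CPM in TCR+DMGV (log2 fold change 0.33, standard error 0.10). Every TCR+DMGV sample was above all TCR alone samples, but Polrmt did not pass over all genes (edgeR adjusted p = 0.999, unadjusted 0.0127). Dna2, a nuclease and helicase of DNA replication and repair, had a log2 fold change of -0.26 (standard error 0.099) and Slc25a33, a pyrimidine nucleotide carrier, one of 0.15 (standard error 0.087). The most abundant gene of the list, the protease gene Lonp1, had 280.7 ± 13.5 CPM in TCR alone, against 273.6 ± 10.9 CPM in TCR+DMGV.

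Of 39 factors of mitochondrial RNA processing and translation tested, 20 were above 0 and 19 below, with a median of 0.01. Tufm, the mitochondrial elongation factor Tu and the most abundant of them, had 121.2 ± 7.29 CPM in TCR alone, against 134.2 ± 1.78 CPM in TCR+DMGV. Mto1, which modifies mitochondrial tRNA, had 29.04 ± 2.97 and 24.43 ± 1.35 CPM, and Gfm2, a ribosome recycling factor, 53.84 ± 3.88 and 60.22 ± 4.69 CPM (SD, n=3 each).

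Nuclear subunits of complex IV and cytochrome c are known targets of GABP and NRF1. Of 13 such genes tested, 10 were above 0, with a median of 0.15 beside 0.00 for all genes, and the median without the 2 libraries apart on the first component was 0.19. With single libraries left out, the median ran from 0.07 without TCR alone replicate 1 to 0.22 without TCR+DMGV replicate 2. Cox5a had 96.73, 91.67 and 86.30 CPM in TCR alone, against 111.3, 115.8 and 110.0 CPM in TCR+DMGV (log2 fold change 0.30, standard error 0.076), and it was the 1 gene of these 13 whose groups did not overlap, beside 4.92% of all genes higher without overlap. It did not pass over all genes (edgeR adjusted p = 0.999, unadjusted 0.00584). Cox8a, the most abundant at a mean of 336 FPKM, had a log2 fold change of 0.20 (standard error 0.11) and Cox6a1 one of 0.18 (standard error 0.10), and their groups overlapped.

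Of 29 genes of mitochondrial protein import tested, 23 were above 0, beside 50.6% of all genes, with a median of 0.07. With single libraries left out, the median ran from -0.001 without TCR alone replicate 1 to 0.11 without TCR+DMGV replicate 1. Their summed level was 3952, 4382 and 4061 CPM in TCR alone, against 4126, 4298 and 4318 CPM in TCR+DMGV, with overlap. Timm13, a chaperone of the space between the membranes, had a log2 fold change of 0.20, Timm17b and Tomm5, parts of the inner and outer membrane translocases, 0.22 each (standard errors 0.10 to 0.12). Hspa9, the import motor's chaperone and the most abundant gene of the list, had 1154 ± 72.2 CPM in TCR alone, against 1155 ± 32.1 CPM in TCR+DMGV.

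Of 24 nuclear receptors and other partners of the PGC-1 coactivators tested, 12 were above and 12 below 0, with a median of 0.00, and Esrrb, Esrrg, Rxrg and Prox1 were listed at 0. Hcfc1, the host cell factor that binds PRC and GABP, had 399.1 ± 44.1 CPM in TCR alone, against 342.4 ± 29.4 CPM in TCR+DMGV (log2 fold change -0.22, standard error 0.11), with overlap. Ppard, a fatty acid receptor gene, had 0.18 (standard error 0.10) and the thyroid hormone receptor gene Thrb, at a mean of 0.144 FPKM, -0.62 (standard error 0.43).

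Of 31 kinases, deacetylases and other factors upstream of PGC-1 and NRF1 tested, 15 were above 0 and 16 below, with a median of -0.01. Prkab1, a regulatory subunit of the AMP-activated kinase, had 36.22 ± 1.78 CPM in TCR alone, against 42.13 ± 1.60 CPM in TCR+DMGV (log2 fold change 0.22, standard error 0.088), without overlap. Prkag2, another of its subunits, had -0.14 (standard error 0.11) and Gsk3b, a kinase, -0.15 (standard error 0.13). Myc, the most abundant at 107 FPKM, had 320.2 ± 14.9 and 335.6 ± 19.6 CPM.

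Of the other ETS factors, which share the DNA motif of GABPA, 16 of 25 were tested, 7 above 0 and 9 below, with a median of -0.02. Etv3 had 38.86 ± 2.32 CPM in TCR alone, against 44.55 ± 3.40 CPM in TCR+DMGV, and Etv5 8.286 ± 0.808 and 7.095 ± 0.501 CPM, both without overlap. Of the 16 tested, 3 were higher and 1 lower without overlap, beside 4.92% and 3.94% of all genes. Elf2 had a log2 fold change of -0.33 (standard error 0.20). Ets1, the most abundant at 35.2 FPKM, had 298.8 ± 69.6 and 371.5 ± 97.8 CPM, and the groups overlapped. The 13 protein-coding genes of the mitochondrial genome, whose transcription TFAM and TFB2M start, were all at 0 and could not be tested.

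The genes whose level followed that of Gabpb1 most closely over the 6 samples, among 9042 genes whose log2 CPM with a prior count of 2 averaged above 3, were Cebpb (Pearson r = 0.992), Larp4b (0.980), Slc39a9 (0.978), Pfkp (0.974) and Otulin (0.968). Cebpb, the gene of an inflammatory transcription factor, had 29.49, 25.02 and 25.71 CPM in TCR alone, against 19.21, 18.53 and 18.12 CPM in TCR+DMGV. Like Gabpb1, it was highest in TCR alone replicate 1 and close together in TCR+DMGV. Slc39a9 had 48.29, 46.90 and 45.47 CPM in TCR alone, against 19.34, 16.44 and 18.72 CPM in TCR+DMGV. There were 9 genes with an r of at least 0.95 and 19 with an r of -0.95 or less. The values are given as description with no test, since the groups of Gabpb1 stand apart and an r over these points follows the difference between the groups.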

How the data were processed

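Reads of 6 mRNA libraries were filtered with SOAPnuke, mapped with HISAT2 2.0.4 and quantified with StringTie by the authors. The submitters' processing notes list mm9, yet the identifiers match GENCODE M21 (GRCm38) for 99.7% of genes without their version and 93.3% with it; coordinates come from that annotation, since the tables hold none. The deposited counts are raw whole numbers for genes and for transcripts, and how they were made from StringTie's estimates is not given in the sources used here. The deposited FPKM values are scaled by the authors to length and to each library's total. Summed counts ran from 37758725 to 43718867 per library, above the read depth the labels state, and intervals cover counting error only.

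Gene and transcript counts were each compared with edgeR 4.0.16 (R 4.3.3; TMM, default filter for low counts, two-sided quasi-likelihood test, Benjamini-Hochberg over all features, threshold 0.05), and CPM are TMM-scaled. Principal components and likeness used log2 CPM with a prior count of 2. The p-values measure the spread between samples that are called biological replicates. No pair of libraries differed as little as sampling noise (median chi-square per gene 4.24 to 10.9). The fits were tested on simulated data, where a larger share of the calls was false with DESeq2 than with edgeR. Alternatives were DESeq2 1.42.0, limma 3.58.1 on log2(FPKM + 1) or log2(FPKM + 0.1), other scalings and filters, summed transcript counts, the replicate number as a block and libraries left out; the summed transcript FPKM was added after the data were seen. The members and the lists were chosen with earlier results of these data known. Of 215 list genes written, 213 were matched. Genes named in the text were all members, in each function list the 3 of smallest p and the most abundant, in each marker list the most abundant and the defining genes (1 of them is not reported here), the 5 most like Gabpb1, and transcripts with at least 5% of a member's counts. Python 3.11.15, pandas 2.3.3, Biopython 1.88 and matplotlib 3.10.9 were used.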

Additional observations from a re-analysis of the deposited data

How the results depend on the processing

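Gabpb1 was lower in TCR+DMGV under all 16 alternatives to its log2 fold change, which ran from -0.80 to -0.64. The log2 fold changes of Gabpa, Tfb1m and Tfb2m stayed below 0 and that of Pprc1 above 0 in all 16, while those of Gabpb2, Nrf1, Tfam and Ppargc1b changed sign in 1 or 2 of them. The summed transcript FPKM is not among these 16, and with it Pprc1 lay below 0 (log2 ratio of the group means -0.09). The number of genes past the threshold, 2, was 1 with library size alone or with every gene that had a count, 14 with DESeq2 (Gabpb1 among them, the one alternative in which a member was past the threshold), 0 with limma on log2(FPKM + 1) or on log2(FPKM + 0.1), and 12 without the 2 libraries apart on the first component. It ran from 0 to 5 when each library was left out, with 0 in 4 of 6 cases, and 5 without TCR+DMGV replicate 1. With the replicate number as a block it was 0 (340 genes at an unadjusted p under 0.05). Samples with the same number did not deviate together (r of -0.154, 0.121 and -0.148 for numbers 1, 2 and 3), so the number was not taken as a pairing. It was not the case that every sample correlated best with its own number. The largest r between samples of the 2 groups, 0.31, was between TCR alone replicate 3 and TCR+DMGV replicate 1. These are the 2 libraries apart on the first component, and what they share was not tested. The number of transcripts past the threshold, 0 with edgeR, was 394 with DESeq2, and with each library left out it ran from 0 to 1, the 1 being without TCR alone replicate 3. No neighbours in the order of levels passed with gene FPKM, and with CPM per kilobase of the longest transcript 6 of 8 pairs did, 5 in the same direction and 1 reversed (Tfb1m below Gabpb2 in 6 of 6 samples), and 0 with the summed transcript FPKM, where 5 pairs, this reversal among them, had the smallest p that 6 samples allow and an adjusted p of exactly 0.05 (exact permutation test). Gabpb1 above Nrf1 was among the 6 pairs with CPM per kilobase. That pair is counted as description, since its values served to choose Gabpb1. How many pairs reach that smallest p sets whether any of them passes after adjustment. The cause of the other shifts was not tested. The complex IV median stayed above 0 in all 16 alternatives (0.07 to 0.22), that of mitochondrial import fell below 0 in 1, and those of the other 5 lists tested took both signs, between -0.05 and 0.08. The number of members with each motif was the same before the start alone, where 1 GC box of Tfb2m dropped out.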
